A study of Homo sapiens with 10 samples.

Results

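The 10 genes described here carry the core of transforming growth factor beta (TGF-beta) signalling: the ligands TGFB1 and TGFB2, the receptors TGFBR1 and TGFBR2, the signal transducers SMAD2, SMAD3 and SMAD4, and the inhibitors SMAD7, SKIL and TRIM33. They were chosen by symbol, and each of the 10 had 1 row among the 52402 gene symbols counted in every library. All 10 passed the filter on low counts, among 14884 genes tested. The libraries were made from BEAS2B, an immortalized human bronchial epithelial line of non-cancerous origin, and all groups, the control included, were transfected with a lipid reagent. The scrambled control (Con), a mimic of miR-3124-5p (miR3124), a mimic of miR-200b-3p (miR200b), an inhibitor of miR-92b (miR92b_in) and a mixture of these 3 agents (MIX) had 2 libraries each. The small RNAs were used at 50 nM and RNA was taken after 48 h, and how much of each agent the mixture held was not given in the sources used here. All groups came from this 1 cell line, and nothing says whether the 2 libraries of a group came from separate transfections, so p-values measure the spread between these libraries, which may be technical.

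TGF-beta ligands bind the type II receptor TGFBR2, which recruits and phosphorylates the type I receptor TGFBR1. TGFBR1 phosphorylates SMAD2 and SMAD3, which join SMAD4 and act on target genes in the nucleus, while SMAD7 blocks the receptors and is itself a target gene of the pathway, which makes it a feedback inhibitor. In airway epithelium the pathway is known for growth arrest, matrix production and the transition towards a mesenchymal form, and the miR-200 family is known for restraining that transition.

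The agents act through short sequences, so the mature miRNAs are shown first. Sequences and positions are from RefSeq (GRCh38.p14), written 5′ to 3′, and capitals mark the seed (bases 2 to 8), which pairs with messenger RNAs. All the loci are on chromosome 1, plus strand: chr1:248826383-248826403 for miR-3124-5p, chr1:1167160-1167181 for miR-200b-3p, chr1:155195196-155195217 for miR-92b-5p and chr1:155195237-155195258 for miR-92b-3p. The labels do not say which arm of miR-92b the inhibitor targets, so both are given.
hsa-miR-3124-5p: uUCGCGGGcgaaggcaaaguc
hsa-miR-200b-3p: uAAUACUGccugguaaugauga
hsa-miR-92b-5p: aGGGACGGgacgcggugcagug
hsa-miR-92b-3p: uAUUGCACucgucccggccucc
No seed was shared between these sequences.

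The DNA words complementary to the seeds were searched on the sense strand of the 3′UTR of each gene's longest coding transcript (GENCODE v29, GRCh38). The word of miR-200b-3p, CAGTATT, was found in 5 of the 10 genes (TGFBR1, SMAD2, SMAD4, SMAD7 and TRIM33) and in 19.5% of the 12229 tested genes with a 3′UTR. The word of miR-92b-3p, GTGCAAT, was found in 4 of 10 (SMAD2, SMAD7, SKIL and TRIM33) and in 13.1% of the 12229. The word of miR-3124-5p, CCCGCGA, was in none of the 10 and in 0.621% of all, and that of miR-92b-5p, CCGTCCC, in none and in 4.19% of all. Longer 3′UTRs hold more words by length alone, and that of SMAD2 was annotated at 32870 bases. The words of miR-200b-3p are printed for each gene that held one. For SMAD2 and TRIM33, with 4 words each, the one nearest the stop codon is given. Of the words of miR-92b-3p only that in SMAD7 is printed, the 1 carrier that rose in miR92b_in. Those in SMAD2, SKIL and TRIM33, which did not pass there, are not shown. Capitals mark the word, and all lie in exons, within the 3′UTR.
TGFBR1, chr9:99151017-99151043, plus strand: gtaacccataCAGTATTttggtcagga
SMAD2, chr18:47841477-47841503, minus strand: tccagtatcaCAGTATTgtgctgttta
SMAD4, chr18:51078820-51078846, plus strand: cagaataatcCAGTATTgctgatttta
SMAD7, chr18:48920562-48920588, minus strand: agccccctcaCAGTATTgctcacccag
TRIM33, chr1:114397487-114397513, minus strand: agcttttacaCAGTATTagattgaaat
SMAD7, miR-92b-3p word, chr18:48920027-48920053, minus strand: tttatgtattGTGCAATgtgtataaac
A match of letters is a description and not a site of action.

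Each library held 13587666 to 18503890 counted reads. Values below are normalized counts scaled to 1000000 reads (CPM), library by library, with the first and second library of a group in that order, and means are given ± SD (n = 2). Differences are log2 fold changes ± standard error (SE) from the quasi-likelihood test of edgeR, p-values are adjusted by Benjamini-Hochberg over the 14884 genes, and a gene is said to have risen, fallen or passed at an adjusted p under 0.05. Keratins KRT8, KRT18 and KRT7 were abundant (600.0 to 1559.5 CPM), but the epithelial markers KRT5, CDH1 and EPCAM averaged under 0.3 CPM in the control and VIM ranged from 798 to 4243 CPM over the libraries, so the control cells carried few of the defining epithelial transcripts. The summed level of 8 epithelial markers was 2261 to 2308 CPM in Con, 2801 to 2805 in miR3124, 4304 to 4394 in miR200b, 2125 to 2216 in miR92b_in and 4117 to 4148 in MIX, and that of 6 mesenchymal markers was 7318 to 7341, 4403 to 4525, 4614 to 4669, 6824 to 6971 and 4964 to 4986 CPM in the same order. The blood, endothelial and neuroendocrine markers PTPRC, PECAM1 and CHGA had at most 4 reads in any library, while the blood marker CD14 reached 12.7 CPM and the endothelial marker CDH5 4.02 CPM, both in miR3124. The mesenchymal sum was mostly VIM and FN1, which averaged 3797 and 3261 CPM in Con, and its members did not all move alike. FN1 averaged 3379 CPM in miR3124, where its libraries overlapped those of Con. It averaged 1406 CPM in miR200b, 2427 in miR92b_in and 1988 in MIX. COL1A1 rose in miR3124, miR200b and MIX and fell in miR92b_in, as given below. Marker levels moved with the groups, and their part in the results below was not tested. In bulk RNA a smaller share of cells expressing a gene and less of its RNA per cell cannot be told apart.

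**Figure D1:**
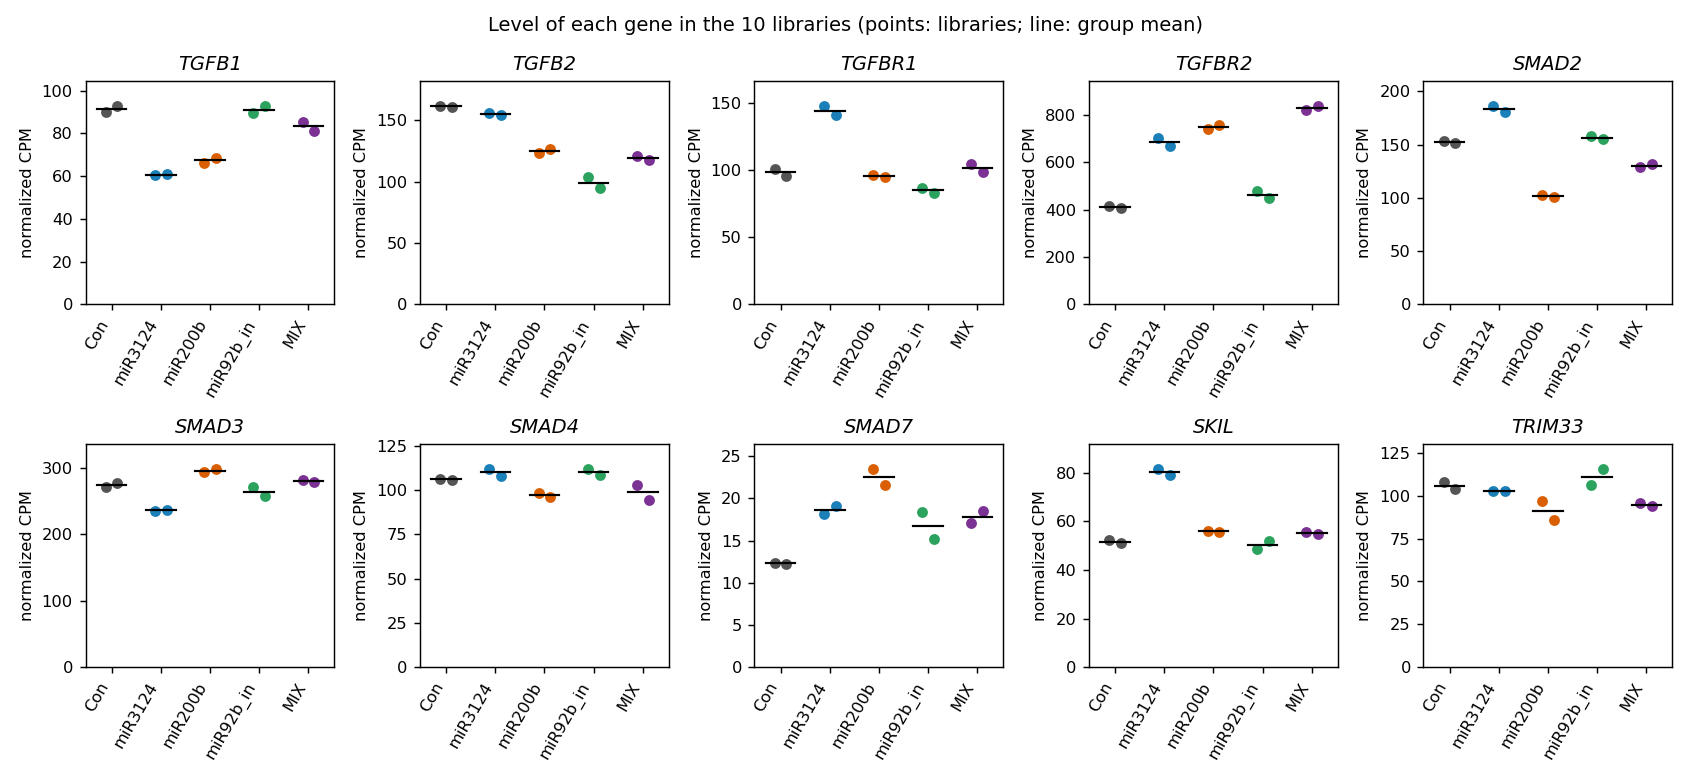
Normalized CPM (linear axis from 0, a scale of its own for each gene) of the 10 genes in the 5 groups, where points are the 2 libraries of a group and the line is their mean. TGFBR2 stood at 409 to 418 CPM in Con and 819.9 to 839 in MIX, SMAD7 was lowest in Con, and TGFB2 was lowest in miR92b_in.

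Both ligand genes fell in miR200b and MIX, although the call of TGFB1 in MIX was lost under some alternatives. TGFB1 also fell in miR3124 and TGFB2 in miR92b_in. TGFB1 (chr19:41301587-41353911 (minus strand)) encodes the most widely expressed TGF-beta ligand. It measured 89.9 and 92.9 CPM in the control libraries, 60.5 and 61.0 in miR3124, 66.3 and 68.5 in miR200b, 89.4 and 92.8 in miR92b_in and 85.6 and 81.2 in MIX. Both mimics given alone left TGFB1 below every library of the other 3 groups, while the miR92b_in libraries overlapped the control. TGFB1 fell 1.50-fold in miR3124 (log2 fold change -0.59 ± 0.053, adjusted p = 2.73e-13) and 1.35-fold in miR200b (-0.44 ± 0.053, adjusted p = 1.69e-09). In miR92b_in its difference was -0.0042 ± 0.049, adjusted p = 0.962. In MIX it was -0.13 ± 0.050, adjusted p = 0.0275, a call that was lost with DESeq2 (adjusted p = 0.102), with library totals as scaling, without a filter on low counts, without the second control library (-0.11, adjusted p = 0.176) and without the second MIX library (-0.096, adjusted p = 0.246). TGFB1 shares 215 exon bases with HNRNPUL1 on the opposite strand, and the strand setting of the counting was not given in the sources used here. HNRNPUL1 fell by 0.22 on the log2 scale in miR3124 and by 0.64 in miR200b, and its part in the TGFB1 counts was not tested.

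TGFB2 (chr1:218346235-218444619 (plus strand)) encodes a second ligand that needs a co-receptor for efficient binding. Its level was 162 and 161 CPM in Con and 156 and 155 in miR3124, then 124 and 127 in miR200b, 103 and 94.9 in miR92b_in and 121 and 118 in MIX. The miR92b_in libraries were the lowest of all 10. TGFB2 fell 1.63-fold in miR92b_in (log2 fold change -0.70 ± 0.045, adjusted p = 2.97e-17), 1.29-fold in miR200b (-0.36 ± 0.045, adjusted p = 2.75e-09) and 1.35-fold in MIX (-0.43 ± 0.044, adjusted p = 1.53e-11). In miR3124 the difference was -0.053 ± 0.043, adjusted p = 0.318, although its libraries did not overlap the control. The mixture held more TGFB2 than miR92b_in (0.27 ± 0.046, adjusted p = 5.67e-06) and differed from miR200b by -0.070 ± 0.046, adjusted p = 0.242. TGFB2 shares 1371 exon bases with TGFB2-OT1 on the same strand, a gene listed at 0 counts in every library.

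Of the receptor genes, TGFBR2 rose in all 4 groups, while TGFBR1 rose in miR3124 and fell in miR92b_in. TGFBR2 (chr3:30606502-30694142 (plus strand)), the ligand-binding type II receptor, measured 418 and 409 CPM in Con, 703 and 669.9 in miR3124, 741 and 757 in miR200b, 478 and 451 in miR92b_in and 819.9 and 839 in MIX. No library of a treated group overlapped the control, and the 5 groups did not overlap each other. TGFBR2 rose 2.01-fold in MIX (log2 fold change 1.005 ± 0.036, adjusted p = 2.90e-27), 1.81-fold in miR200b (0.86 ± 0.036, adjusted p = 1.44e-24), 1.66-fold in miR3124 (0.73 ± 0.036, adjusted p = 3.15e-22) and 1.12-fold in miR92b_in (0.17 ± 0.037, adjusted p = 0.000279). These calls held under all alternatives run. Every neighbouring pair in the order MIX, miR200b, miR3124, miR92b_in, Con differed beyond its spread, with adjusted p-values of 0.000728, 0.00210, 2.34e-18 and 0.000279. The step from miR200b to miR3124 was lost without the second miR3124 library (log2 difference 0.097, adjusted p = 0.0662).

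TGFBR1 (chr9:99104038-99154192 (plus strand)), the type I receptor kinase, behaved differently. Its level was 101 and 95.6 CPM in Con, 148 and 141 in miR3124, 96.4 and 94.7 in miR200b, 86.8 and 83.2 in miR92b_in and 105 and 98.6 in MIX. The miR3124 libraries stood above the other 8, and the miR200b and MIX libraries overlapped the control. TGFBR1 rose 1.47-fold in miR3124 (log2 fold change 0.55 ± 0.047, adjusted p = 5.66e-14) and fell 1.16-fold in miR92b_in (-0.21 ± 0.050, adjusted p = 0.000656). The differences in miR200b (-0.044 ± 0.050, adjusted p = 0.525) and MIX (0.046 ± 0.048, adjusted p = 0.476) did not pass. Within each library, TGFBR2 had 4.20 ± 0.102 times the reads of TGFBR1 in Con, 4.75 ± 0.0013 in miR3124, 5.46 ± 0.0682 in miR92b_in, 7.84 ± 0.215 in miR200b and 8.17 ± 0.480 in MIX (mean ± SD, n = 2). This ratio of read counts was higher in both libraries of every treated group than in either control library. With 2 libraries against 2 the exact permutation test, two-sided, cannot give a p under 0.333, so no test is given for ratios.

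Among the transducers, SMAD2 moved most and in opposite directions under the 2 mimics. SMAD2 (chr18:47808957-47931146 (minus strand)) is phosphorylated directly by TGFBR1. It measured 153 and 151 CPM in Con, 186 and 181 in miR3124, 103 and 101 in miR200b, 158 and 155 in miR92b_in and 129 and 131 in MIX. The miR3124 libraries were the highest of the 10, the miR200b libraries the lowest, and those of MIX lay between miR200b and the control. SMAD2 rose 1.20-fold in miR3124 (log2 fold change 0.27 ± 0.041, adjusted p = 3.32e-07), fell 1.50-fold in miR200b (-0.58 ± 0.044, adjusted p = 2.70e-15) and fell 1.17-fold in MIX (-0.23 ± 0.042, adjusted p = 1.59e-05). The difference in miR92b_in was 0.039 ± 0.042, adjusted p = 0.513. The 2 mimics differed from each other by -0.85 ± 0.044, adjusted p = 7.63e-22 (miR200b minus miR3124).

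SMAD3 (chr15:67063763-67195195 (plus strand)), the second substrate of TGFBR1, binds DNA directly and stood at 272 and 277 CPM in Con, 236 and 237 in miR3124, 293 and 299 in miR200b, 271 and 258 in miR92b_in and 282 and 278 in MIX. Its direction under each mimic was the reverse of that of SMAD2, with smaller values. SMAD3 fell 1.16-fold in miR3124 (log2 fold change -0.21 ± 0.038, adjusted p = 6.27e-06) and rose 1.08-fold in miR200b (0.11 ± 0.038, adjusted p = 0.0154). The rise in miR200b was lost without the first control library (0.0998, adjusted p = 0.111) and without the second miR200b library (0.098, adjusted p = 0.0964). Neither miR92b_in (-0.054 ± 0.038, adjusted p = 0.286) nor MIX (0.030 ± 0.038, adjusted p = 0.561) passed. The 2 mimics differed by 0.33 ± 0.039, adjusted p = 5.30e-10 (miR200b minus miR3124). The ratio of SMAD3 to SMAD2 reads within a library was 1.80 ± 0.0387 in Con, 1.29 ± 0.0331 in miR3124, 1.69 ± 0.0393 in miR92b_in, 2.15 ± 0.0514 in MIX and 2.91 ± 0.0801 in miR200b, and no 2 of the groups overlapped in it.

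SMAD4 (chr18:51028394-51085045 (plus strand)), the partner shared by all receptor-activated SMADs, varied least. It measured 106 and 106 CPM in Con, 112 and 108 in miR3124, 98.3 and 95.7 in miR200b, 112 and 108 in miR92b_in and 103 and 94.2 in MIX. The highest and the lowest group mean were 1.13-fold apart, and no neighbouring groups in the order of levels differed beyond their spread. Groups further apart did. SMAD4 was lower in miR200b than in miR3124 (-0.18 ± 0.050, adjusted p = 0.00156). It was higher in miR92b_in than in miR200b (0.18 ± 0.049, adjusted p = 0.00161). Both calls held under all alternatives run. SMAD4 fell in miR200b (-0.13 ± 0.049, adjusted p = 0.0346), but not with DESeq2 (adjusted p = 0.105), without a filter on low counts (adjusted p = 0.0701) or without either control library or either miR200b library (-0.14 to -0.11, adjusted p from 0.055 to 0.203). The differences in miR3124 (0.054 ± 0.048), miR92b_in (0.055 ± 0.048) and MIX (-0.10 ± 0.048) did not pass. That in MIX passed only without the first MIX library (-0.17, adjusted p = 0.0218).

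Of the inhibitors, SMAD7 rose in all 4 groups. SMAD7 (chr18:48919853-48952052 (minus strand)), the feedback inhibitor that blocks receptor signalling, was the least abundant of the 10 genes. It measured 12.4 and 12.3 CPM in Con, 18.1 and 19.1 in miR3124, 23.5 and 21.6 in miR200b, 18.4 and 15.2 in miR92b_in and 17.1 and 18.5 in MIX. Every treated library stood above both control libraries. SMAD7 rose 1.83-fold in miR200b (log2 fold change 0.87 ± 0.11, adjusted p = 2.69e-09), 1.51-fold in miR3124 (0.60 ± 0.11, adjusted p = 7.21e-06), 1.44-fold in MIX (0.53 ± 0.11, adjusted p = 5.98e-05) and 1.36-fold in miR92b_in (0.44 ± 0.11, adjusted p = 0.00104). The rise in miR92b_in was lost without the first miR92b_in library (0.30, adjusted p = 0.0724). The ratio of SMAD7 to SMAD4 reads went from 0.116 ± 0.00036 in Con to 0.152 ± 0.0168 in miR92b_in, 0.170 ± 0.0106 in miR3124, 0.181 ± 0.0215 in MIX and 0.233 ± 0.0097 in miR200b, with miR3124 overlapping both miR92b_in and MIX.

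SKIL (chr3:170357678-170396835 (plus strand)) encodes SnoN, a nuclear co-repressor of SMAD complexes. Its level was 52.2 and 51.2 CPM in Con, 81.8 and 79.0 in miR3124, 56.3 and 55.8 in miR200b, 48.8 and 52.1 in miR92b_in and 55.7 and 54.9 in MIX. Both miR3124 libraries stood far above the other 8, which lay between 48.8 and 56.3 CPM. SKIL rose 1.55-fold in miR3124 (log2 fold change 0.64 ± 0.056, adjusted p = 1.54e-13). Its differences in miR200b (0.12 ± 0.060, adjusted p = 0.123), miR92b_in (-0.035 ± 0.059, adjusted p = 0.701) and MIX (0.098 ± 0.058, adjusted p = 0.181) did not pass. SKIL was lower in MIX than in miR3124 by a log2 difference of -0.54 ± 0.055, adjusted p = 1.71e-11.

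TRIM33 (chr1:114392777-114511160 (minus strand)), a ubiquitin ligase that acts on SMAD4 and also binds SMAD2 and SMAD3, measured 108 and 104 CPM in Con, 103 and 103 in miR3124, 97.1 and 85.7 in miR200b, 107 and 116 in miR92b_in and 95.5 and 93.9 in MIX. The miR200b and MIX libraries lay below the control, with the miR200b libraries unlike each other. TRIM33 fell 1.16-fold in miR200b (log2 fold change -0.22 ± 0.053, adjusted p = 0.000645), a call lost without the second miR200b library (-0.12, adjusted p = 0.126). It fell 1.12-fold in MIX (-0.16 ± 0.051, adjusted p = 0.00884), a call lost without the first control library (-0.13, adjusted p = 0.109) or the second MIX library (-0.15, adjusted p = 0.0657). Neither miR3124 (-0.044 ± 0.052) nor miR92b_in (0.071 ± 0.050) passed, and no neighbouring groups in the order of levels differed beyond their spread. The highest and the lowest group did differ. TRIM33 was higher in miR92b_in than in miR200b (0.29 ± 0.052, adjusted p = 6.95e-06), a call that held under all alternatives run.

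**Figure D2:**
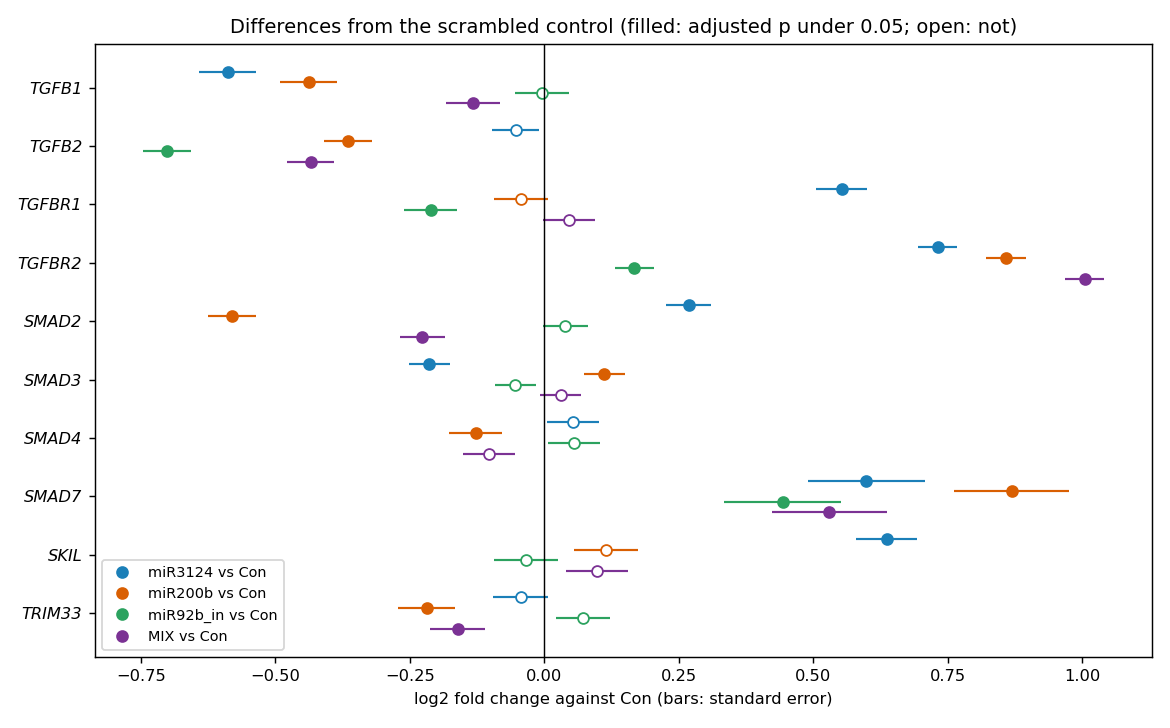
Log2 fold change of each gene against the scrambled control (x axis, bars are the SE), with 1 color for each treated group, filled points for an adjusted p under 0.05 and open points otherwise. TGFBR2 and SMAD7 lie right of 0 in all 4 groups, TGFB2 lies left of 0 in all 4 and passed in 3, and SMAD2 lies on opposite sides in miR3124 and miR200b.

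The number of genes that passed is read against all genes tested. In miR3124, 7 of the 10 passed (5 higher, 2 lower), where 51.0% of all tested genes did (25.7% higher, 25.3% lower). In miR200b, 8 passed (3 higher, 5 lower), where 40.6% of all did (21.4% higher, 19.1% lower), and 5 passed without the second miR200b library. In miR92b_in, 4 passed (2 higher, 2 lower), where 35.7% of all did (17.5% higher, 18.2% lower). In MIX, 6 passed (2 higher, 4 lower), where 42.7% of all did (21.5% higher, 21.1% lower). These counts include calls that were lost under some alternatives. They were SMAD3, SMAD4 and TRIM33 in miR200b, SMAD7 in miR92b_in, and TGFB1 and TRIM33 in MIX. The median size of the log2 fold change over the 10 genes was 0.41 in miR3124 (0.29 over all genes), 0.29 in miR200b (0.23), 0.063 in miR92b_in (0.20) and 0.15 in MIX (0.23). Only TGFBR2 in MIX reached 2-fold, a size that 4.67% of all genes reached and passed in MIX, 8.13% in miR3124, 4.88% in miR200b and 1.91% in miR92b_in. The libraries of the treated group and the control did not overlap for 10, 9, 7 and 9 of the 10 genes in miR3124, miR200b, miR92b_in and MIX, against 73.9%, 67.3%, 65.7% and 69.5% of all genes. The 4 comparisons share the control libraries, so a direction common to them is not independent between them. TGFBR2 and SMAD7 rose in all 4, and SMAD3, SMAD4, SKIL, TRIM33 and TGFBR1 rose or fell in no more than 2.

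Direct comparisons between the agents set treated libraries against each other, while the control libraries still entered the shared estimate of the spread. Between miR200b and miR3124 all 10 genes passed, where 57.8% of all genes did. All 10 also passed between miR92b_in and miR200b (50.5% of all genes), and 8 between miR92b_in and miR3124 (58.8% of all genes). With 1 library left out these counts lay between 8 and 10, 9 and 10, and 7 and 9. The weakest call was that of TRIM33 between miR92b_in and miR3124 (0.12 ± 0.051, adjusted p = 0.0489), which was lost without the first or the second control library (adjusted p = 0.0505 and 0.0501), without either miR3124 library or the second miR92b_in library (adjusted p from 0.123 to 0.482), and with DESeq2, library totals, no filter or at least 10 counts in every library (adjusted p from 0.0507 to 0.144). SMAD2 had the largest difference between the mimics. TGFBR1 was lower in miR200b than in miR3124 by a log2 difference of -0.60 ± 0.048, adjusted p = 6.14e-15, and SKIL by -0.52 ± 0.057, adjusted p = 4.88e-11. The ligands parted in the comparison of miR92b_in with miR200b, TGFB1 being higher in miR92b_in (0.43 ± 0.052, adjusted p = 1.28e-09) and TGFB2 lower (-0.34 ± 0.047, adjusted p = 4.14e-08). The ratio of TGFB1 to TGFB2 reads was 0.567 ± 0.0156 in Con, 0.391 ± 0.0051 in miR3124, 0.539 ± 0.0033 in miR200b, 0.699 ± 0.0133 in MIX and 0.921 ± 0.0797 in miR92b_in, and no 2 of the groups overlapped.

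**Figure D3:**
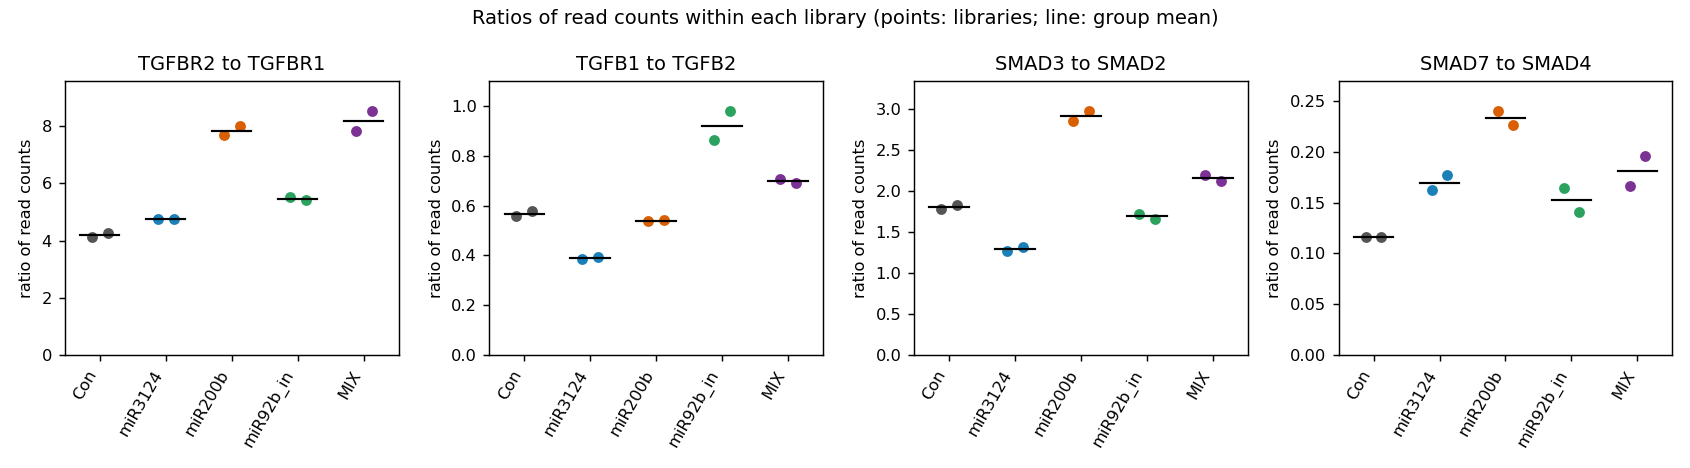
Ratio of read counts of 2 genes within each library (linear axes from 0) for the 5 groups, where points are libraries and the line is the group mean. TGFBR2 to TGFBR1 was highest in MIX and miR200b, TGFB1 to TGFB2 in miR92b_in, and SMAD3 to SMAD2 and SMAD7 to SMAD4 in miR200b.

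Between MIX and miR200b 4 of 10 genes passed, where 38.6% of all genes did, against 8 between MIX and miR3124 (49.1%) and 7 between MIX and miR92b_in (39.6%). The 4 that separated MIX from miR200b were TGFB1 (0.31 ± 0.053, adjusted p = 5.91e-06), TGFBR2 (0.15 ± 0.035, adjusted p = 0.000728), SMAD2 (0.35 ± 0.045, adjusted p = 9.23e-09) and SMAD7 (-0.34 ± 0.099, adjusted p = 0.00498). SMAD7 no longer passed without the first miR200b library (-0.28, adjusted p = 0.0613) or without the first MIX library (-0.28, adjusted p = 0.0663). TGFBR1 was lower in MIX than in miR3124 by -0.51 ± 0.047, adjusted p = 8.14e-13.

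The last contrast asked whether the difference of the mixture from the control departed from the sum of the 3 single differences on the log2 scale. Of the 10 genes 5 passed (2 higher than the sum, 3 lower), where 21.7% of all genes did (11.7% higher, 10.1% lower). TGFB1 summed to -1.03 over the single agents but stood at -0.13 in MIX, a departure of 0.90 ± 0.10, adjusted p = 2.18e-09. TGFB2 summed to -1.12 and stood at -0.43, a departure of 0.68 ± 0.088, adjusted p = 4.05e-08. For both ligands the mixture therefore lay nearer to the control than the sum did. The same held for 3 genes whose sum was above 0. TGFBR2 summed to 1.76 and stood at 1.005, a departure of -0.75 ± 0.073, adjusted p = 3.33e-11. SMAD7 summed to 1.91 and stood at 0.53, a departure of -1.38 ± 0.21, adjusted p = 2.05e-06, and SKIL summed to 0.72 and stood at 0.098, a departure of -0.62 ± 0.12, adjusted p = 5.93e-05. SMAD2 summed to -0.27 and stood at -0.23, with a departure of 0.047 ± 0.085, adjusted p = 0.769, and those of SMAD3, SMAD4 and TRIM33 did not pass either (0.19 ± 0.076, -0.084 ± 0.097 and 0.031 ± 0.10). TGFBR1 missed the threshold (-0.25 ± 0.098, adjusted p = 0.0594) and passed under 5 alternatives, with the replicate number as a block (-0.26, adjusted p = 0.0413), with library totals (-0.26, adjusted p = 0.0446), with at least 10 counts in every library (-0.26, adjusted p = 0.0414), without the second miR3124 library (-0.29, adjusted p = 0.0455) and without the first MIX library (-0.29, adjusted p = 0.0414). The control enters this contrast on both sides, and the dose of each agent within the mixture is the unknown named above.

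**Figure D4:**
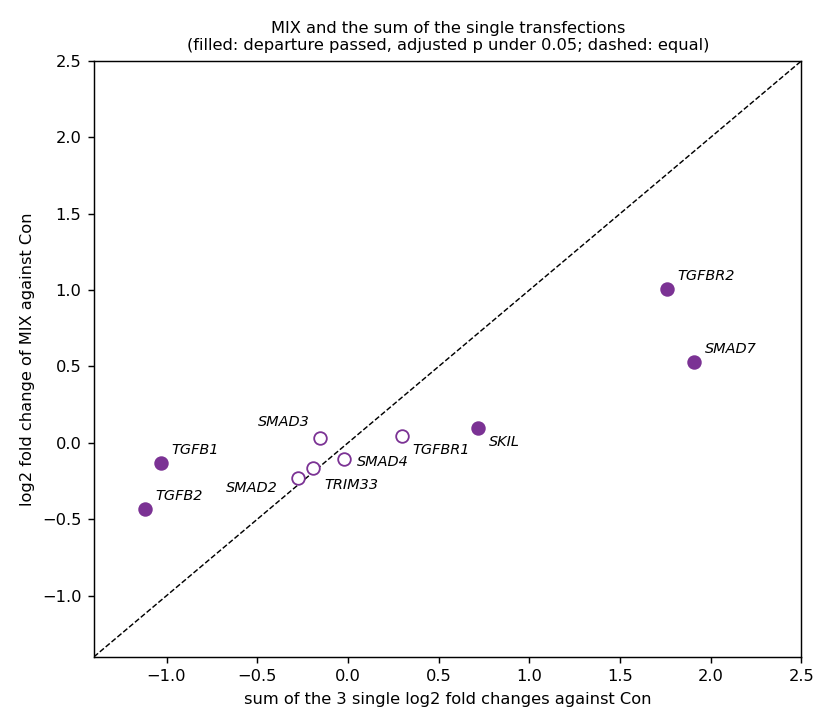
Log2 fold change of MIX against the control (y axis) beside the sum of the 3 single log2 fold changes (x axis), 1 point for each gene, filled where the departure from the sum had an adjusted p under 0.05, with the dashed line where both are equal. TGFB1 and TGFB2 lie above the line at sums of -1.03 and -1.12, and TGFBR2, SMAD7 and SKIL lie below it at sums of 1.76, 1.91 and 0.72.

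Genes with and without a seed word were set side by side. In miR200b, the 5 genes with the word of miR-200b-3p had 3 that fell (SMAD2, SMAD4 and TRIM33), 1 that rose (SMAD7) and 1 that did not pass (TGFBR1), with a median of -0.13 on the log2 scale, where 40.6% of all tested genes passed. The 5 without it had 2 that fell (TGFB1 and TGFB2), 2 that rose (TGFBR2 and SMAD3) and 1 that did not pass (SKIL), with a median of 0.11. SMAD2 and TRIM33 held 4 words each, and their log2 fold changes were -0.58 and -0.22. TGFBR1, SMAD4 and SMAD7 held 1 each, with -0.044, -0.13 and 0.87. The first word in SMAD2 lay at bases 334 to 340 of its annotated 3′UTR of 32870 bases, and the next at 11122 to 11128. Whether the number of words bears on the fold change was not tested. Allowing for an A opposite the first miRNA base, the word AGTATTA, which overlaps the longer site, was in SMAD2, SMAD3 and TRIM33 and in 14.7% of all 3′UTRs. The miR200b calls of SMAD3, SMAD4 and TRIM33 were lost under some alternatives, as given above. MIX also held the miR-200b-3p mimic. There, carriers of CAGTATT and the other genes each had 1 that rose, 2 that fell and 2 that did not pass. Their medians were -0.10 and 0.030, where 42.7% of all tested genes passed. In miR92b_in, the 4 carriers of the word of miR-92b-3p had 1 that rose (SMAD7) and 3 that did not pass, with a median of 0.055, where 35.7% of all tested genes passed, and the 6 others had 1 that rose, 2 that fell and 3 that did not pass, with a median of -0.029. The corresponding word with an A, TGCAATA, was in TGFB2, SMAD2, SMAD4, SKIL and TRIM33 and in 13.1% of all 3′UTRs, so that 6 genes held either word, among them TGFB2, which fell most in miR92b_in (-0.70). The form with an A was in TRIM33 for miR-92b-5p (CGTCCCA, 3.09% of all 3′UTRs). For miR-3124-5p it was in none of the 10 (CCGCGAA, 0.352% of all). No gene carried the word of miR-3124-5p, and 7 of the 10 passed in miR3124, where 51.0% of all tested genes did.

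The order of the group means showed which neighbours differed beyond their spread. TGFB1 ran from Con through miR92b_in, MIX and miR200b to miR3124, and Con and miR92b_in did not differ (adjusted p = 0.962). Its steps from miR92b_in to MIX (adjusted p = 0.0353) and from miR200b to miR3124 (adjusted p = 0.0193) were both lost with DESeq2 (adjusted p = 0.126 and 0.0664), the former also without either miR92b_in library or the second MIX library (adjusted p from 0.0512 to 0.266), the latter also without either miR3124 library or the second miR200b library (adjusted p from 0.0588 to 0.116). TGFB2 ran from Con through miR3124, miR200b and MIX to miR92b_in, with steps past the threshold from miR3124 to miR200b (adjusted p = 6.71e-08) and from MIX to miR92b_in (adjusted p = 5.67e-06). TGFBR1 and SKIL had miR3124 at the top, with a step to the next group (adjusted p = 8.14e-13 and 4.88e-11). Below it, MIX, Con and miR200b did not differ in TGFBR1, nor did miR200b, MIX, Con and miR92b_in from neighbour to neighbour in SKIL. SMAD2 ran from miR3124 through miR92b_in, Con and MIX to miR200b, and only miR92b_in and Con did not differ (adjusted p = 0.513). SMAD3 ran from miR200b through MIX, Con and miR92b_in to miR3124, and only the last step passed (adjusted p = 0.000374). In SMAD7 the steps from miR200b to miR3124 (adjusted p = 0.0187) and from miR92b_in to Con (adjusted p = 0.00104) passed, while miR3124, MIX and miR92b_in did not differ from neighbour to neighbour. The first of these was lost with DESeq2 (adjusted p = 0.0895) and without the first miR3124 library (adjusted p = 0.0933) or the first miR200b library (adjusted p = 0.123).

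Levels of different genes can be compared only per length. On the scale of CPM per kilobase of annotated exon, TGFBR2 was highest in the control (87.9), followed by TGFB2 (31.3), SMAD3 (30.1), TGFB1 (28.2), TGFBR1 (14.4), TRIM33 (11.1), SMAD4 (8.07), SKIL (6.64), SMAD2 (4.19) and SMAD7 (2.45). With the longest transcript as length the order of TGFB2, SMAD3 and TGFB1 changed to SMAD3 (43.9), TGFB1 (33.0) and TGFB2 (31.9), and the other places did not. The level of SMAD2 per kilobase rests on an annotated exon length of 36366 bases. TGFBR2 in MIX reached 176 CPM per kilobase. The widest range of group means on the log2 CPM scale was that of TGFBR2 (1.005, MIX over Con), followed by SMAD7 (0.87), SMAD2 (0.85), TGFBR1 (0.76), TGFB2 (0.70), SKIL (0.67), TGFB1 (0.59), SMAD3 (0.32), TRIM33 (0.28) and SMAD4 (0.18). The median range over the 12898 genes with a mean of at least 1 CPM was 0.55, and 7 of the 10 genes lay above it.

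The rest of the pathway was followed through 6 lists with 96 genes, of which 81 were tested. Of these 81, 58 passed in miR3124 (37 higher, 21 lower), 55 in miR200b (33 higher, 22 lower), 45 in miR92b_in (18 higher, 27 lower) and 53 in MIX (28 higher, 25 lower), with medians of 0.19, 0.035, -0.025 and -0.016 on the log2 scale beside medians of 0.0039, -0.0055, -0.0061 and 0.0030 over all genes, in the same order. These counts are 71.6, 67.9, 55.6 and 65.4% of the 81, where 51.0, 40.6, 35.7 and 42.7% of all tested genes passed. For genes named from a list, every group in which they passed is given. Among 17 tested genes of other ligands and their activation, 11 passed in miR3124 (6 higher, 5 lower), 10 in miR200b (5 and 5), 10 in miR92b_in (3 and 7) and 11 in MIX (6 and 5), or 64.7, 58.8, 58.8 and 64.7% of the list, with list medians of 0.37, -0.10, -0.26 and 0.23. ITGB6, an integrin chain that activates latent TGF-beta, had no read in either control library, which allows up to 3 reads a library. Its level was 2.47 and 2.01 CPM in miR200b and 1.10 and 0.860 in MIX, and at most 0.109 CPM elsewhere. It was named after its values were seen, and since it could enter the test only through the groups where it was high, its p-values are not given, although it is among the genes counted in miR200b and MIX. Without it, the medians over 16 genes were 0.35, -0.12, -0.27 and 0.11. INHBA, which encodes the activin A subunit, rose in miR200b (0.90 ± 0.070, adjusted p = 3.92e-15), miR92b_in (0.71 ± 0.070, adjusted p = 1.78e-11) and MIX (1.74 ± 0.063, adjusted p = 4.58e-27), from 31.2 ± 2.41 CPM in Con to 104 ± 4.63 in MIX, and fell in miR3124 (-0.60 ± 0.083, adjusted p = 3.39e-08). In miR3124, LTBP1 rose (1.06 ± 0.20, adjusted p = 1.20e-05) and LTBP4 fell (-1.05 ± 0.069, adjusted p = 7.45e-18), both of which hold latent TGF-beta in the matrix. LTBP4 also fell in miR200b (-0.34 ± 0.064, adjusted p = 2.49e-05), miR92b_in (-0.39 ± 0.063, adjusted p = 2.68e-06) and MIX (-0.80 ± 0.065, adjusted p = 2.83e-14). GDF11, another ligand of the family, fell in miR3124 (-0.83 ± 0.086, adjusted p = 1.36e-11), miR200b (-0.79 ± 0.086, adjusted p = 1.29e-10), MIX (-0.86 ± 0.084, adjusted p = 5.67e-12) and miR92b_in (-0.26 ± 0.079, adjusted p = 0.00788). Its call in miR92b_in was lost with DESeq2 and without the second control or the second miR92b_in library (-0.26 to -0.21, adjusted p from 0.0635 to 0.117). The third ligand gene TGFB3 fell in MIX (-1.11 ± 0.30, adjusted p = 0.00223) at a low level (3.01 ± 0.378 CPM in Con). INHBB, a further activin subunit, rose in miR92b_in (0.56 ± 0.15, adjusted p = 0.00286), but not without the first miR92b_in library (0.45, adjusted p = 0.06).

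Among 11 tested receptors and co-receptors, 8 passed in miR3124 (5 higher, 3 lower), 5 in miR200b (3 and 2), 3 in miR92b_in (2 and 1) and 8 in MIX (4 and 4), with list medians of 0.34, 0.0037, 0.063 and -0.030. These are 72.7, 45.5, 27.3 and 72.7% of the list against 51.0, 40.6, 35.7 and 42.7% of all genes, so that the shares in miR200b and miR92b_in were near those of all genes. The count in miR200b was 3 without the first control library or without the second miR200b library. ACVR2B, an activin type II receptor, rose from 13.7 ± 0.652 CPM in Con to 53.6 ± 2.55 in miR3124 (1.97 ± 0.087, adjusted p = 2.70e-24), and also rose in miR200b (0.90 ± 0.097, adjusted p = 1.14e-10) and MIX (0.82 ± 0.095, adjusted p = 6.20e-10). TGFBR3, betaglycan, the co-receptor that presents TGF-beta2 to TGFBR2, rose in miR3124 from 9.03 ± 0.556 to 33.9 ± 1.05 CPM (1.91 ± 0.10, adjusted p = 1.04e-20) and also rose in MIX (0.56 ± 0.12, adjusted p = 0.000115). CD109, a co-receptor that dampens TGF-beta signalling, rose in miR200b (0.32 ± 0.040, adjusted p = 4.99e-09) and fell in miR3124 (-0.29 ± 0.041, adjusted p = 4.49e-08), miR92b_in (-0.36 ± 0.041, adjusted p = 1.13e-09) and MIX (-0.27 ± 0.041, adjusted p = 3.28e-07). The activin and BMP type I receptor ACVR1 rose in miR92b_in (0.39 ± 0.085, adjusted p = 0.000273), miR200b (0.24 ± 0.088, adjusted p = 0.0255) and MIX (0.26 ± 0.086, adjusted p = 0.0103). Its calls in miR200b and MIX were lost with DESeq2 and without the second control library and the second library of the group, and that in miR200b also without the first control library (0.17 to 0.26, adjusted p from 0.0562 to 0.226). ACVR1B, the activin type I receptor that also uses SMAD2 and SMAD3, fell in miR3124 (-1.22 ± 0.091, adjusted p = 7.50e-16), MIX (-0.96 ± 0.086, adjusted p = 4.95e-13) and miR200b (-0.29 ± 0.082, adjusted p = 0.00330), the last call being lost without the first control library (-0.22, adjusted p = 0.0918) or the second miR200b library (-0.25, adjusted p = 0.0595).

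The list of other SMADs, anchors and partners had 11 tested genes, of which 8 passed in miR3124 (4 higher, 4 lower), 7 in miR200b (2 and 5), 6 in miR92b_in (2 and 4) and 6 in MIX (1 and 5), or 72.7, 63.6, 54.5 and 54.5% of the list beside 51.0, 40.6, 35.7 and 42.7% of all genes, with list medians of 0.051, -0.099, -0.059 and -0.18. The count in miR3124 was 5 with DESeq2 and 5 without the second control library. SMAD9, a BMP-branch SMAD, rose in miR3124 (0.44 ± 0.094, adjusted p = 0.000113) and fell in miR200b (-0.83 ± 0.11, adjusted p = 2.14e-08), miR92b_in (-0.42 ± 0.10, adjusted p = 0.000838) and MIX (-0.47 ± 0.10, adjusted p = 0.000181). SMAD6, the inhibitory SMAD of the BMP branch, fell in miR200b (-0.71 ± 0.13, adjusted p = 2.07e-05), MIX (-0.54 ± 0.13, adjusted p = 0.000446) and miR92b_in (-0.34 ± 0.12, adjusted p = 0.0265) and rose in miR3124 (0.34 ± 0.12, adjusted p = 0.0120). The call in miR92b_in was lost with DESeq2, without either control library and without the second miR92b_in library (-0.38 to -0.28, adjusted p from 0.059 to 0.198), and that in miR3124 with DESeq2, without the second control library and without the first miR3124 library (0.28 to 0.35, adjusted p from 0.0811 to 0.102). The endosomal anchor ZFYVE16 rose in miR3124 (0.47 ± 0.051, adjusted p = 5.41e-11) and in miR200b (0.16 ± 0.053, adjusted p = 0.0149), the latter call being lost with DESeq2 and without the second control or the first miR200b library (0.12 to 0.16, adjusted p from 0.0596 to 0.147). FOXH1, a DNA-binding partner of SMAD2, fell in miR92b_in (-0.91 ± 0.28, adjusted p = 0.00836) at 2.92 ± 0.162 CPM in Con, a call lost without the first control library (-0.85, adjusted p = 0.057) or the second miR92b_in library (-0.73, adjusted p = 0.103).

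Of 19 tested genes of the list of inhibitors, 13 passed in miR3124 (7 higher, 6 lower), 13 in miR200b (10 and 3), 8 in miR92b_in (5 and 3) and 10 in MIX (6 and 4), with list medians of 0.078, 0.12, 0.064 and 0.041. These are 68.4, 68.4, 42.1 and 52.6% of the list against 51.0, 40.6, 35.7 and 42.7% of all genes, the share in miR92b_in being near that of all genes. The count in miR3124 was 8 with DESeq2, 8 without the second control library and 8 without either miR3124 library. It fell in miR200b without the second control library, and in miR92b_in without the second miR92b_in library. The list also held USP9X, USP15 and RNF111, which promote rather than inhibit TGF-beta signalling. Its counts by direction, shares and medians are therefore no measure of more or less inhibition. PMEPA1, a TGF-beta target gene that sequesters SMAD2 and SMAD3, rose from 29.6 ± 0.654 CPM in Con to 98.0 ± 1.87 in miR200b (1.73 ± 0.060, adjusted p = 7.32e-28) and 87.0 ± 0.748 in MIX (1.56 ± 0.060, adjusted p = 3.99e-26), and also in miR3124 (0.66 ± 0.067, adjusted p = 7.99e-12) and miR92b_in (0.27 ± 0.069, adjusted p = 0.00166). NEDD4L, a ubiquitin ligase for activated SMAD2 and SMAD3, rose in miR200b (0.36 ± 0.036, adjusted p = 1.66e-11), miR92b_in (0.43 ± 0.036, adjusted p = 1.26e-13) and MIX (0.49 ± 0.036, adjusted p = 4.33e-16). In miR3124, SKI, the co-repressor related to SKIL, fell from 128 ± 1.68 to 60.4 ± 2.40 CPM (-1.08 ± 0.053, adjusted p = 2.11e-22) while SKIL rose, and FST, the secreted activin inhibitor, rose (1.28 ± 0.21, adjusted p = 1.08e-06). SKI also fell in miR92b_in (-0.24 ± 0.049, adjusted p = 0.000103) and MIX (-0.38 ± 0.049, adjusted p = 7.54e-09) and rose in miR200b (0.19 ± 0.048, adjusted p = 0.000979).

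Of 20 genes of the TGF-beta response list, 16 passed in miR3124 (13 higher, 3 lower, median 0.36), 18 in miR200b (12 and 6, median 0.34), 17 in miR92b_in (6 and 11, median -0.21) and 16 in MIX (10 and 6, median 0.18). These are 80.0, 90.0, 85.0 and 80.0% of the list, where 51.0, 40.6, 35.7 and 42.7% of all genes passed. CTGF, a matricellular target gene, rose from 260.0 ± 5.28 CPM in Con to 820.3 ± 4.72 in miR3124 (1.66 ± 0.037, adjusted p = 8.35e-36), rose in MIX (0.89 ± 0.037, adjusted p = 7.51e-25) and miR200b (0.45 ± 0.038, adjusted p = 6.72e-14) and fell in miR92b_in (-0.29 ± 0.039, adjusted p = 7.31e-08). COL1A1, a collagen chain, rose in miR200b (1.62 ± 0.095, adjusted p = 2.92e-19), miR3124 (0.99 ± 0.10, adjusted p = 1.05e-11) and MIX (0.87 ± 0.10, adjusted p = 5.44e-10) and fell in miR92b_in (-0.90 ± 0.13, adjusted p = 1.30e-07). BHLHE40, a transcriptional repressor, and TAGLN, an actin-binding protein, both fell in miR92b_in (-0.998 ± 0.066, adjusted p = 6.82e-17, and -0.95 ± 0.064, adjusted p = 1.34e-16). BHLHE40 rose in miR200b (0.69 ± 0.056, adjusted p = 1.84e-14), whereas TAGLN fell there (-0.85 ± 0.065, adjusted p = 2.50e-15) and rose in miR3124 (1.45 ± 0.052, adjusted p = 8.99e-28). SNAI1, a transcription factor of the mesenchymal transition, was low (0.587 ± 0.182 CPM in Con) and rose in miR3124 (1.62 ± 0.43, adjusted p = 0.00131) and MIX (1.47 ± 0.43, adjusted p = 0.00403), but not without the second miR3124 library (1.06, adjusted p = 0.126) or, in MIX, without the first control library (1.18, adjusted p = 0.0733). ZEB2, a repressor of epithelial genes and a known miR-200 target, fell in miR200b (-2.27 ± 0.11, adjusted p = 3.61e-23) and MIX (-1.66 ± 0.092, adjusted p = 3.61e-20) and rose in miR3124 (0.53 ± 0.074, adjusted p = 3.91e-08) and miR92b_in (0.26 ± 0.075, adjusted p = 0.00426), the last call being lost without the second control library (0.20, adjusted p = 0.11) or the first miR92b_in library (0.22, adjusted p = 0.0621). In each group some genes of this list rose and others fell. The list was not split by the direction in which TGF-beta moves each gene. Its counts by direction and its medians are therefore no measure of more or less response.

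**Figure D5:**
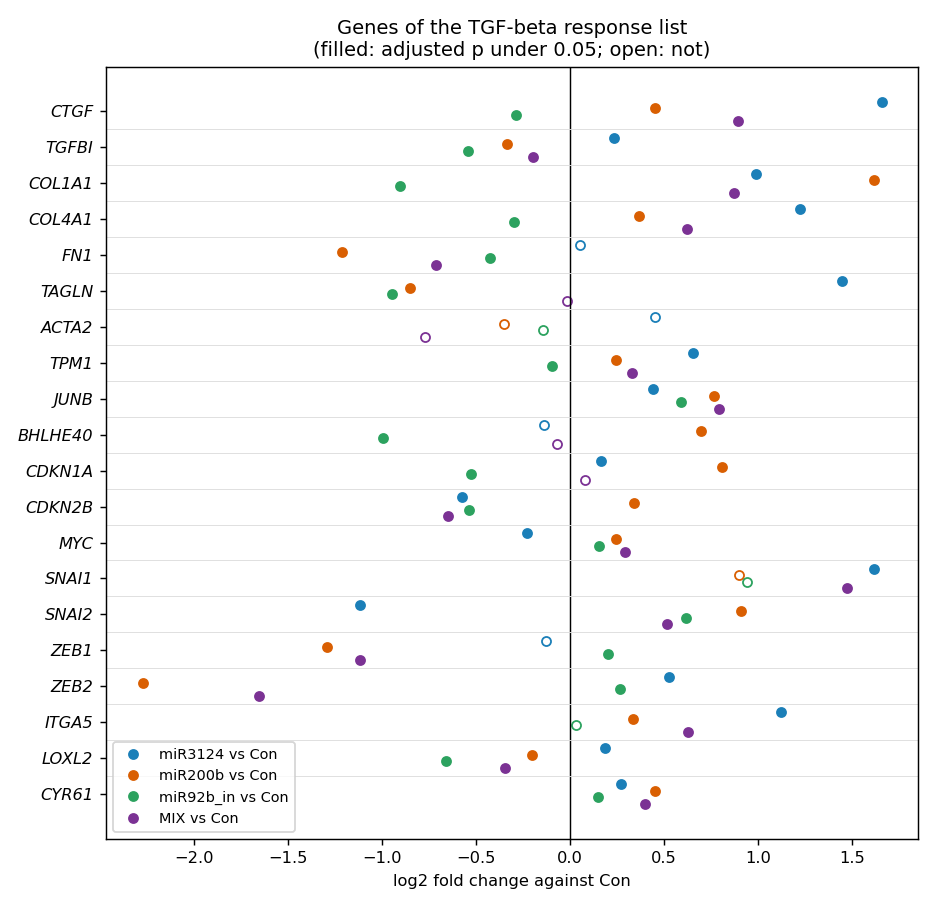
Log2 fold change against the control (x axis) of the 20 genes of the TGF-beta response list, 1 row for each gene and 1 color for each treated group, filled where the adjusted p was under 0.05. In miR200b 12 genes rose and 6 fell, ZEB2 fell most there (-2.27) and CTGF rose most in miR3124 (1.66).

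Of 8 genes of the BMP response list only ID1, ID2 and ATOH8 were tested. Of these 3, 2 passed in miR3124, miR200b and MIX and 1 in miR92b_in, with list medians of 0.51, 0.26, -0.10 and -0.27. The shares were 66.7% in miR3124, miR200b and MIX, where 51.0, 40.6 and 42.7% of all tested genes passed. In miR92b_in the share was 33.3%, near the 35.7% of all genes, and 3 genes are too few to read a share from. ID1, an inhibitor of differentiation factors, rose in miR3124 (0.26 ± 0.057, adjusted p = 0.000129), miR200b (0.26 ± 0.057, adjusted p = 0.000217) and MIX (0.35 ± 0.055, adjusted p = 1.08e-06) and fell in miR92b_in (-0.27 ± 0.059, adjusted p = 0.000261). The call in miR200b was lost without the second miR200b library (0.16, adjusted p = 0.0647), and that in miR92b_in without the first control library (-0.18, adjusted p = 0.0555). ATOH8, a transcription factor induced by BMP signalling, rose in miR3124 (0.60 ± 0.11, adjusted p = 1.28e-05) and fell in miR200b (-1.04 ± 0.14, adjusted p = 2.03e-08) and MIX (-0.83 ± 0.13, adjusted p = 6.38e-07).

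The genes most like the 3 members with the widest range were found by Pearson's r of log2 CPM over the 10 libraries, among 10418 genes with a mean of at least 5 CPM. TGFBR2 was most like ENTPD7 (r = 0.997, Spearman's rho = 0.976) and TMEM87B (r = 0.992, rho = 0.988). ENTPD7 went from 72.3 CPM in Con to 148 in miR3124, 172 in miR200b, 86.5 in miR92b_in and 193 in MIX. SMAD7 was most like PPP4R1 (r = 0.960, rho = 0.915) and KHNYN (r = 0.955, rho = 0.891). SMAD2 was most like B4GAT1 (r = 0.996), which by rho (0.879) took place 203, and NQO1 (r = 0.993, rho = 0.976). The 10 libraries are 5 groups of 2, so these values describe group means and carry no test.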

How the data were processed

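Poly(A)-selected RNA of 10 BEAS2B libraries was sequenced on a NovaSeq as paired-end reads of a directional kit, and per the study's methods and the labels reads were trimmed, aligned with TopHat to GRCh38 and counted by the authors. The deposited files hold raw read counts for each gene symbol. The counting tool, its strand setting and the annotation were not given in the sources used here, and the transfected miRNAs were not analysed here. Of 58173 rows a file, 5771 repeated a symbol and were summed, leaving 52402. Depth limits precision, and SMAD7, with 206 to 376 reads a library, had the largest standard errors.

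Counts were fitted with edgeR 4.0.16 (quasi-likelihood test, R 4.3.3, geometric RLE scaling, 5 groups in 1 fit, low-count filter leaving 14884 genes), with Benjamini-Hochberg adjustment over all genes tested and calls at an adjusted p under 0.05. The SE was taken as the size of the log2 fold change over the square root of F. The test was tried on simulated data first. Alternatives were TMM, library totals, DESeq2 1.42.0, other filters, the 2 groups compared alone, a replicate block and each library left out.

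All 10 members were named. In each pathway list and comparison with the control, up to 2 genes that passed were named, those with the largest rise or fall among genes with a mean of at least 1 CPM and libraries that did not overlap the control. Members, lists and tests were chosen with earlier results of these data known. Genes of the response and marker lists that are not reported here were left out of those lists, their counts and the plot. Some gene symbols are older ones (CTGF for CCN2, CYR61 for CCN1).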

Additional observations from a re-analysis of the deposited data

How the results depend on the processing

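The counts of genes that passed were followed for the 10 genes and for all list genes together. They stayed within 1.5 times the reported count in all 106 values from other settings. With 1 library left out 149 of 150 values did, and the remaining value was a count of the 10 genes. The exception was miR200b against the control, without the second miR200b library. Counts within 1.5 times could still move with the library left out, among them that of MIX against the control. Of 770 log2 fold changes of the 10 genes under other settings, 735 kept their direction and their side of the threshold, 18 lost the call, 11 gained it and 6 turned direction, and of 1100 with a library left out the counts were 1043, 37, 8 and 12. Each that turned direction had not passed. TGFB1 in miR92b_in against the control turned to 0.0055 with TMM, 0.0037 with library totals and 0.0010 with the 2 groups alone, SKIL in MIX against miR200b to 0.0087 with library totals, and SMAD4 in miR92b_in against miR3124 to -0.018 with library totals and -0.018 with at least 10 counts in every library. With 1 library left out, the ranges of those that turned were -0.084 to 0.00063 for TGFBR1 in miR200b, -0.029 to 0.023 for TGFB1 and -0.081 to 0.011 for SKIL in miR92b_in, -0.040 to 0.084 for SMAD4 and -0.040 to 0.14 for TRIM33 in MIX against miR200b, -0.047 to 0.23 for SMAD7 in MIX against miR92b_in, -0.025 to 0.028 for SMAD4 in miR92b_in against miR3124, and -0.058 to 0.12 for the departure of TRIM33 from the sum. The cause was not tested. Of 1361 values of named list genes 1330 held and 31 lost the call, and of 414 counts of single lists 402 stayed within 1.5 times. No scaling moved the median of all genes by 0.1. The 2-group fit could not be made for the sum contrast.

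Libraries of the same number were not treated as pairs in the main fit. The correlation of same-numbered deviations lay between -0.10 and 0.078 over 9268 genes. That shows no shared shift, but it cannot show whether libraries of the same number were handled together, which the labels do not say. With the number as a replicate block, 7, 8, 4 and 6 of the 10 genes passed in miR3124, miR200b, miR92b_in and MIX, as without it, and 6 in place of 5 departed from the sum, TGFBR1 being added. With the MIX numbers crossed, an alternative chosen after the data were seen, 6 genes passed in MIX against the control. Per-kilobase levels in Con moved by more than the spread between libraries for all 10 genes when the longest transcript set the length.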
